A study of Homo sapiens with 59 samples.

Results

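Fatty acid oxidation genes were followed in the monocytic leukaemia line THP-1, which is of human origin, under rosiglitazone (RSG), a drug that binds and activates PPARG, a nuclear receptor. The genes were 42 named enzymes and carriers of mitochondrial and peroxisomal oxidation. A probe of the Illumina bead arrays was kept when its detection p was under 0.01 on 5 or more arrays. This left 51 probes of 38 genes, among 15336 kept probes in all, of 11515 named genes. No probe was named for ABCD3, ACSL3 or ACOT8, and the only ACADSB probe was detected on 3 arrays and left out. The least detected probe that was kept, of CPT1A, was seen on 5 arrays. Of the 51 probes, 37 were detected on all 59 arrays, and 9 genes had more than 1 kept probe. Probes of 1 gene are numbered here by falling mean signal.

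All groups shared the same start. The cells were treated with 10 ng/ml PMA, a phorbol ester, for 40 h, which drives them towards a macrophage-like state, and kept for 2 h without it. They then received 1 µM RSG or its vehicle DMSO for 0.5, 1.5, 3, 8 or 12 h. Each of the 10 groups held 6 arrays, except RSG at 1.5 h with 5. Each sample of this single line was plated and treated on its own, per the methods, but whether replicates came from separate passages or days is not stated. The p-values measure only the spread between these arrays. Levels below are log2 intensities after background correction and quantile normalization, so that 1 unit is a 2-fold difference, and the levels of different probes cannot be set against each other.

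Long-chain fatty acids are first activated to acyl-CoA, passed through the inner mitochondrial membrane as carnitine esters, and shortened in a repeated cycle. The cycle consists of a dehydrogenation, a hydration, another oxidation and a thiolytic cut, and the electrons of the dehydrogenation leave through the electron transfer flavoprotein. Peroxisomes run a related cycle on very long and branched chains. PPAR receptors are known regulators of many of these genes in liver, muscle and fat, and oxidation of fatty acids is a known feature of macrophages in their anti-inflammatory state.

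Of the 59 arrays, 5 stood apart in their whole profile: RSG 8 h replicate 1, RSG 12 h replicates 2 and 5, and DMSO 12 h replicates 4 and 6. Their median correlation with all others was 0.895 to 0.931, and that of the remaining 54 was 0.959 to 0.986. The main comparisons are therefore given with 54 and with 59 arrays. The mean level of 6 dendritic maturation markers was 11.69 to 12.75 on the 5 arrays and 6.61 to 7.51 on the others, and that of 8 inflammatory markers 12.16 to 13.76 against 7.84 to 9.01. That of 10 macrophage markers, with 14 to 16 of their 16 probes detected on each array, was 9.36 to 9.82 against 10.08 to 10.83. All 10 probes of T and B cell markers averaged 4.58 to 4.80, and at most 3 of them were detected on any array. In such bulk RNA, fewer cells of a type and less RNA per cell cannot be told apart. On the RSG arrays among the 5, PDK4, a kinase that restrains glucose oxidation and a known RSG target, stood at 4.46, 4.51 and 5.48. The other RSG arrays of 8 and 12 h held PDK4 at 8.37 to 9.40, the other DMSO arrays of those times at 5.03 to 5.91, and DMSO 12 h replicates 4 and 6 at 4.49 and 4.39. At 3 h, DMSO replicates 1 and 4 stood at 6.88 and 8.21 and RSG replicate 2 at 4.95, against 4.72 to 5.22 on the other DMSO arrays and 7.62 to 8.45 on the other RSG arrays. These 3 arrays go against their labels by PDK4. RSG 0.5 h replicate 6 also stood apart, with PDK4 at 7.50 (4.56 to 5.49 on the other RSG arrays of 0.5 h) and the responsive probe of ANGPTL4, another known RSG target, at 8.83 (5.86 to 6.76). All 4 were kept, and were left out in turn and, in a fit chosen after seeing the data, together.

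The first question was whether the ligand changed any step of oxidation within hours. None of the 51 probes was called at 0.5, 1.5 or 3 h in either set, at an adjusted p under 0.05 in limma. No member probe reached an unadjusted p under 0.05 at 0.5 or 3 h in either set, and 1 did at 1.5 h with 54 arrays (0 with 59). Of all kept probes 1.81%, 1.60% and 3.81% did at 0.5, 1.5 and 3 h with 54 arrays. With 59 arrays these shares were 0.952%, 0.782% and 2.01%. Over all kept probes, 0%, 0.013% and 0% were called with 54 arrays, and 0% at each of these times with 59. The differences of the members between RSG and DMSO ran from -0.29 to 0.28 at 0.5 h, from -0.26 to 0.36 at 1.5 h and from -0.21 to 0.27 at 3 h. Without the 4 arrays doubted by PDK4 the count was again 0 at each of these times in both sets. The known target PDK4 was called at 1.5 h with 54 arrays (2.64, limma adjusted p = 0.00176) but not at 3 h (1.71, adjusted p = 0.335). With 59 arrays PDK4 was called at no single time, with 2.70 (adjusted p = 0.101) at 8 h and 2.54 (adjusted p = 0.306) at 12 h. A count of 0 in such fits therefore does not show that no member changed.

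At 8 h, 3 member probes were called with 54 arrays. SLC25A20 and ACSL1 were higher with RSG and ACAD11 was lower. Of all kept probes 0.893% were called, and of the member probes 3 of 51. With all 59 arrays 0 members were called, where 0.0782% of all probes were, and 6 members had an unadjusted p under 0.05 (11.8%, against 4.78% of all probes). With 54 arrays 11 did (21.6%, against 6.19%). At 12 h, SLC25A20 and ACAA2 were higher and ACAD11 was lower, again 3 of 51, where 1.53% of all probes were called. With 59 arrays 0 members and 0.0196% of all probes were called at 12 h, and 3 members had an unadjusted p under 0.05 (5.88%, against 2.63% of all probes). With 54 arrays 14 did at 12 h (27.5%, against 10.6%). The median difference over the member probes was 0.08 at 8 h and 0.09 at 12 h with 54 arrays, and over all probes -0.01 at both times. With 59 arrays the members' median was 0.00 at 8 h and 0.06 at 12 h. At 8 h, 36 of the 51 probes were higher with RSG with 54 arrays (70.6%, against 48.3% of all kept probes) and 26 with 59 (51.0%, against 47.9%). At 12 h, 33 were (64.7%, against 48.3%) with 54 arrays and 34 (66.7%, against 49.0%) with 59.

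**Figure D1:**
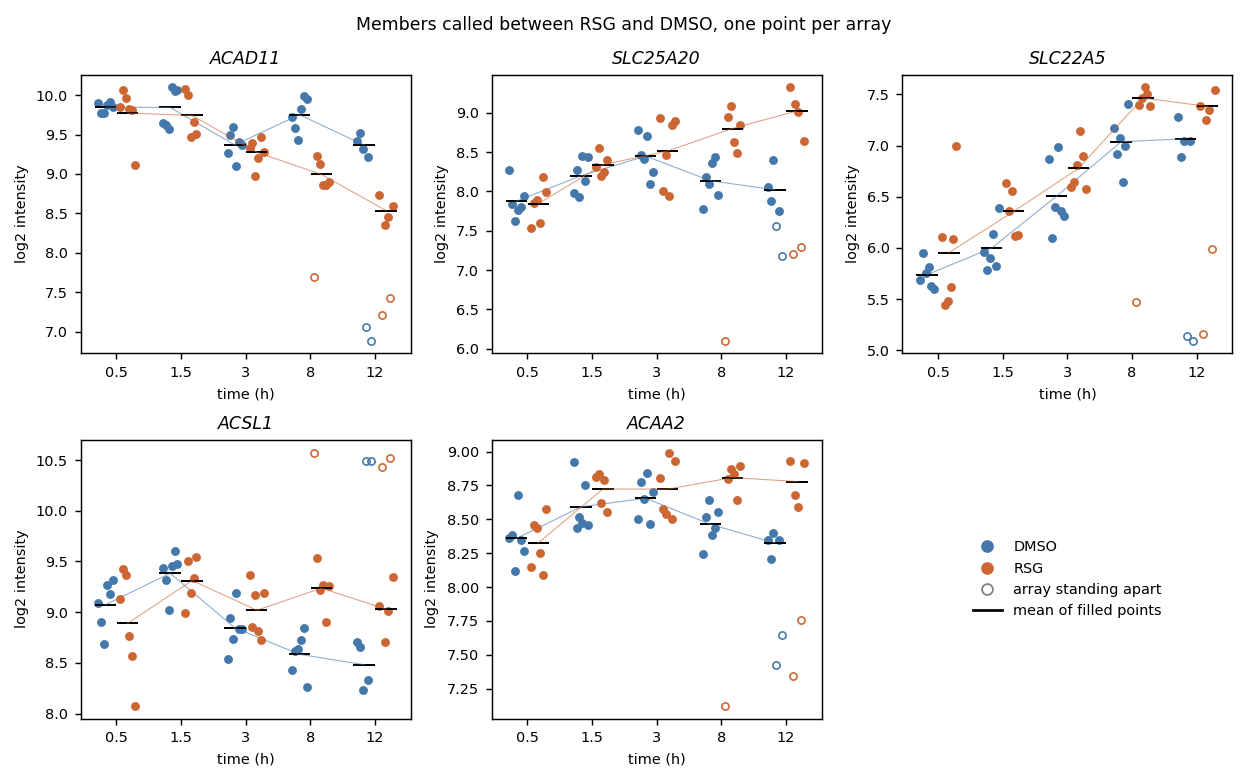
Log2 intensity (vertical axis) of the 5 members called between RSG and DMSO, by time in hours (horizontal axis). Each point is 1 array, filled or, for the 5 arrays standing apart, hollow, and black bars are means of the filled points. ACAD11 separates downward under RSG from 8 h, while SLC25A20, ACSL1 and ACAA2 separate upward. The hollow points lie below the filled points of 8 and 12 h or, for ACSL1, above them.

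SLC25A20 is the carnitine-acylcarnitine translocase, which exchanges acylcarnitines for carnitine across the inner mitochondrial membrane. At 8 h its level was 7.78, 8.14 and 8.44 (lowest, median and highest of 6 DMSO arrays) and 8.94, 9.09, 8.63, 8.49 and 8.85 on RSG replicates 2 to 6. Each of the 5 RSG values exceeded every DMSO value. The difference was 0.66 (SE 0.16, limma adjusted p = 0.0200), a 1.58-fold rise. At 12 h the DMSO arrays held 8.06, 7.87, 8.39 and 7.75 (replicates 1, 2, 3 and 5), and the RSG arrays 9.33, 9.12, 9.01 and 8.65 (replicates 1, 3, 4 and 6). The groups did not overlap, and SLC25A20 rose 2.00-fold, by 1.00 (SE 0.19, adjusted p = 7.02e-04). With 59 arrays the differences were 0.21 (SE 0.30) at 8 h and 0.63 (SE 0.30) at 12 h, with adjusted p of 0.969 and 1.00. In DMSO alone its mean stood at 7.88 at 0.5 h, 8.45 at 3 h and 8.02 at 12 h. The call at 12 h was kept without any 1 of the 8 arrays. At 8 h it was lost without DMSO replicate 1 or 6 or RSG replicate 2, 3 or 6 (adjusted p of 0.061 to 0.10).

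SLC22A5 is the plasma membrane transporter that supplies the cell with carnitine. It was called over all times together with 54 arrays, by a treatment term beside time, with a rise of 0.32 (SE 0.07, adjusted p = 0.00942). SLC25A20 (0.32, SE 0.09, adjusted p = 0.0414) and ACAD11 (-0.34, SE 0.07, adjusted p = 0.00348) were the other members called over all times, where 1.34% of all probes were. The call of SLC25A20 over all times was lost in 24 of the 54 fits without 1 array, and that of SLC22A5 in 0. With 59 arrays 0 members passed, against 0.209% of all probes. An unadjusted p under 0.05 was reached by 7 members with 59 arrays (13.7%, against 5.14% of all probes). With 54 arrays 14 members reached it (27.5%, against 9.23%). At each time the mean of SLC22A5 was higher with RSG, by 0.22, 0.36, 0.27, 0.43 and 0.32 from 0.5 to 12 h, and it was called at none of these times. At 8 h the RSG arrays held 7.39, 7.47, 7.57, 7.50 and 7.39, and the DMSO arrays 6.64 to 7.41 (median 7.04). The highest DMSO array, replicate 6, reached into the RSG range. RSG 0.5 h replicate 6 alone stood at 6.99, and RSG 0.5 h replicates 1 to 5 at 5.44 to 6.11. The DMSO arrays of 0.5 h held 5.60 to 5.95. The difference of 0.22 at 0.5 h thus rests on replicate 6, an array doubted by PDK4.

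The other members of the carnitine shuttle gave smaller differences at 12 h with 54 arrays, and none was called. CPT1A, whose product attaches fatty acids to carnitine at the outer membrane, had a difference of 0.25 (SE 0.15) on its brightest probe. Its probes 2 and 3 were detected on only 9 and 5 of the 59 arrays and say little. CPT2, which releases the acyl group inside, differed by 0.22 (SE 0.18). The acetyl transferase CRAT differed by 0.09 (SE 0.18) and the peroxisomal octanoyl transferase CROT by -0.15 (SE 0.19). Of 8 shuttle probes, 1 was called at 8 h and 1 at 12 h, the same SLC25A20 probe.

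ACAD11 belongs to the acyl-CoA dehydrogenases, which start each turn of the cycle, and is known to act on long chains. At 8 h the lowest, median and highest DMSO arrays held 9.43, 9.78 and 9.99. The RSG arrays held 9.23, 9.12, 8.86, 8.86 and 8.90 (replicates 2 to 6), each of them below the lowest DMSO array. ACAD11 fell by 0.76 (SE 0.13, adjusted p = 1.41e-04), to a level 1.69-fold lower. At 12 h the DMSO arrays held 9.42, 9.52, 9.31 and 9.21 and the RSG arrays 8.74, 8.35, 8.46 and 8.59, again without overlap. The fall was 0.83 (SE 0.15, adjusted p = 3.98e-04), a 1.78-fold lower level. With 59 arrays the differences were -0.97 (SE 0.29, adjusted p = 0.327) at 8 h and -0.44 (SE 0.29, adjusted p = 1.00) at 12 h.

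ACAD11 was also the only member whose RSG effect differed between times with 54 arrays (limma moderated F over the differences from 0.5 h, adjusted p = 0.0126), where 0.326% of all probes did. Its differences were -0.08, -0.10 and -0.09 at 0.5, 1.5 and 3 h, against -0.76 and -0.83 later. With 59 arrays 0 members and 0% of all probes were called in that test, and 1 member had an unadjusted p under 0.05 (1.96%, against 0.867% of all probes). With 54 arrays 6 members did (11.8%, against 3.89%). For SLC25A20 the same test gave an adjusted p of 0.0539 with 54 arrays. The call of ACAD11 at 8 h, at 12 h and over all times was kept without any 1 array of the comparison.

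The other dehydrogenases were not called. ACADVL, which acts on very long chains, had 3 kept probes that differed at 12 h by 0.41 (SE 0.17), 0.29 (SE 0.15) and 0.85 (SE 0.25) with 54 arrays, with adjusted p of 0.346, 0.491 and 0.0749. On its brightest probe the RSG arrays of 12 h held 11.55, 11.60, 11.74 and 11.43 and the DMSO arrays 11.16, 10.92, 11.27 and 11.34. These values did not overlap. On the third probe DMSO replicate 2 was not detected, and without DMSO replicate 3 the difference was 1.08 with an adjusted p of 0.0163. ACADM, the medium-chain enzyme, differed by 0.17 (SE 0.15) at 12 h and ACADS, the short-chain enzyme, by 0.16 (SE 0.18). ACAD8, which acts on a valine product, ACAD9, known also as an assembly factor of respiratory complex I, and ACAD10 differed by -0.03, 0.13 and -0.19.

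Electrons from these enzymes pass through the flavoprotein of ETFA and ETFB to the ubiquinone oxidoreductase ETFDH. The 4 kept probes of these genes were each higher with RSG at 8 and 12 h with 54 arrays, by 0.06 to 0.22 and by 0.09 to 0.36, and none was called. The highest value was that of ETFB probe 2 at 12 h, 0.36 (SE 0.13, adjusted p = 0.190). With 59 arrays the differences ran from -0.04 to 0.12 at 8 h and from 0.11 to 0.26 at 12 h. Earlier, with 54 arrays, they ran from 0.01 to 0.15 at 0.5 h, from 0.02 to 0.05 at 1.5 h and from -0.02 to 0.17 at 3 h. The shared sign was thus not particular to 8 and 12 h.

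ACAA2 is the mitochondrial thiolase that cuts medium and long chains in the last step of the cycle. At 12 h the DMSO arrays held 8.35, 8.21, 8.40 and 8.35 and the RSG arrays 8.93, 8.68, 8.59 and 8.92, without overlap. ACAA2 rose by 0.45 (SE 0.12, adjusted p = 0.0367), or 1.37-fold. At 8 h it was higher by 0.34 (SE 0.10) on RSG arrays of 8.80, 8.87, 8.83, 8.64 and 8.89, with an adjusted p of 0.132. With 59 arrays the difference at 12 h was 0.31 (SE 0.21, adjusted p = 1.00). The call at 12 h was lost in 6 of the 8 fits without 1 array: DMSO replicate 1, 2 or 5, or RSG replicate 1, 3 or 6 (adjusted p of 0.0540 to 0.184). The thiolase ACAT1, which also serves ketone bodies and isoleucine, differed by 0.25 (SE 0.08, adjusted p = 0.189) at 8 h. All 5 of its RSG values exceeded the DMSO values. HADHA and HADHB, the subunits of the trifunctional protein for long chains, differed by 0.20 and 0.00 at 12 h, and HADH, the dehydrogenase for shorter chains, by 0.21. The hydratase ECHS1 differed by 0.01, and both probes of HSD17B10, an enzyme of isoleucine breakdown, by 0.02 and -0.14.

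Unsaturated fatty acids need isomerases and a reductase in addition to the enzymes of the cycle. ECI1, a mitochondrial enoyl-CoA isomerase, had a difference of 0.54 at 12 h (SE 0.15, adjusted p = 0.0533). Its RSG arrays held 9.35, 8.96, 9.02 and 8.51 and its DMSO arrays 8.61, 8.00, 8.65 and 8.44, and 3 of the 4 RSG arrays lay above all DMSO arrays. It passed the threshold without DMSO 12 h replicate 1 or 3, or RSG 12 h replicate 6. PECR, a peroxisomal enoyl-CoA reductase, differed by 0.36 (SE 0.12), the mitochondrial dienoyl-CoA reductase DECR1 by 0.23 (SE 0.12), the peroxisomal DECR2 by 0.00 (SE 0.12), and both ECI2 probes by -0.33 and -0.13. None of these was called.

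Among peroxisomal members none of 8 probes was called at 8 or 12 h. Their median difference at 12 h was -0.09 with 54 arrays. HSD17B4, the multifunctional enzyme for branched and very long chains, differed by 0.26 (SE 0.10, adjusted p = 0.280) and the oxidase ACOX3 by -0.19 (SE 0.11). The thiolase ACAA1, the multifunctional enzyme EHHADH, the racemase AMACR (2 probes) and PHYH (2 probes), which starts the breakdown of phytanic acid, ran from -0.14 to 0.26.

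ACSL1, a long-chain acyl-CoA synthetase that activates fatty acids, was called at 8 h. The lowest, median and highest DMSO arrays held 8.26, 8.62 and 8.84, and the RSG arrays 9.54, 9.22, 9.27, 8.90 and 9.26, each above the highest DMSO array. ACSL1 rose by 0.65 (SE 0.16, adjusted p = 0.0295), or 1.57-fold. At 12 h the difference was 0.55 (SE 0.19, adjusted p = 0.177), with DMSO arrays at 8.71, 8.66, 8.23 and 8.33 and RSG arrays at 9.06, 8.70, 9.01 and 9.35. RSG replicate 3 then lay within the DMSO range. With 59 arrays the difference at 8 h was 0.88 (SE 0.29, adjusted p = 0.554), since RSG 8 h replicate 1 stood at 10.58. The call was lost without DMSO 8 h replicate 1 or 6, or RSG 8 h replicate 2, 3, 4 or 6 (adjusted p of 0.0611 to 0.137). The synthetase ACSL5 was higher at 8 h by 0.27 (SE 0.08, adjusted p = 0.109) on probe 1 and by 0.37 (SE 0.13, adjusted p = 0.285) on probe 2. On probe 1 the 5 RSG arrays, at 8.66 to 8.80, lay above the DMSO arrays, at 8.32 to 8.59. ACSL4, which prefers arachidonic acid, differed by 0.03 to 0.36 on 3 probes at 8 h and by -0.12 to -0.02 at 12 h, and the thioesterase ACOT2 by 0.03 and -0.24.

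**Figure D2:**
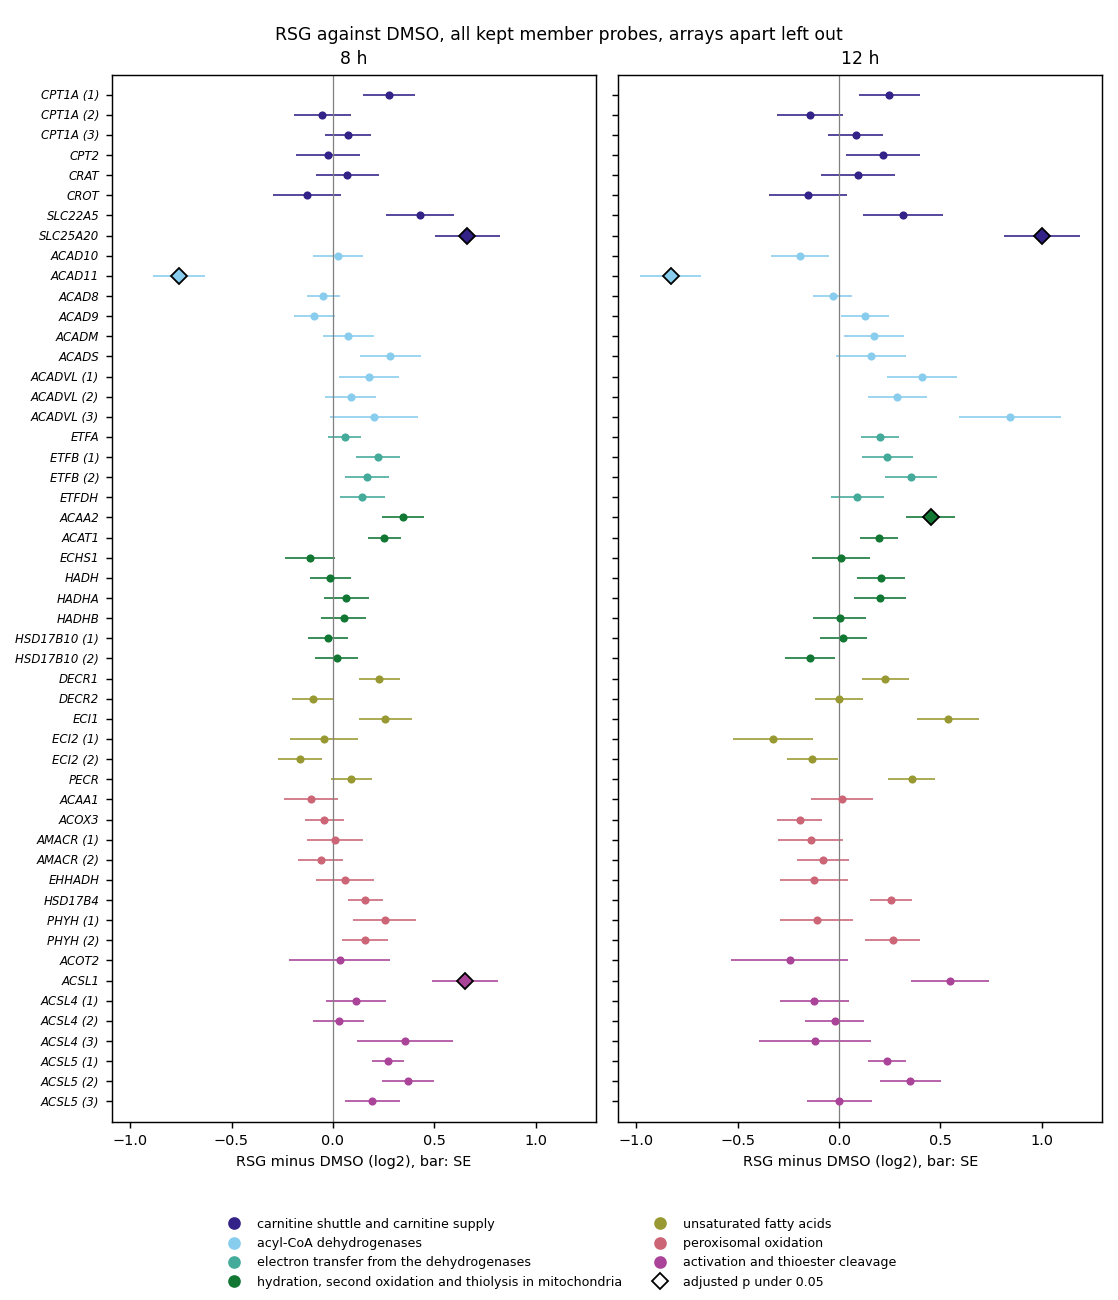
Difference between RSG and DMSO (log2, horizontal axis) with its standard error for each of the 51 kept member probes (vertical axis, coloured by role) at 8 h and at 12 h, 54 arrays. Diamonds mark the 3 probes called at each time; ACAD11 stands alone on the left, and the electron transfer probes lie to the right of 0 at both times.

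A further split ran through the arrays of each time. The first principal component of the residuals from the group means took 24.8% of their variance over the 54 arrays. At 8 h it put DMSO replicates 1 to 3 with RSG replicates 4 to 6, and DMSO replicates 4 to 6 with RSG replicates 2 and 3. Within these sides at 8 h ACAD11 differed by -0.71 and -0.75, SLC25A20 by 0.63 and 0.77, ACSL1 by 0.58 and 0.77, and ACAA2 by 0.32 and 0.38. At 12 h the sides held 3 DMSO against 2 RSG arrays, and 1 against 2. There ACAD11 differed by -0.89 and -0.67, SLC25A20 by 0.72 and 1.47, and ACAA2 by 0.43 and 0.46. SLC22A5 differed by 0.41 and 0.43 within the sides at 8 h and by 0.38 and 0.27 at 12 h. These members were chosen because they were called. Where RSG and DMSO values did not overlap, any split of the arrays gives both sides the same sign. That held for ACAD11 and SLC25A20 at 8 and 12 h, for ACSL1 at 8 h and for ACAA2 at 12 h. Their shared signs there are therefore no test. Before 8 h, where no member was called, signs differed between the sides in some cases and were shared in others. They differed, for example, at 0.5 h for ACAD11 (-0.23 and 0.08) and ACSL1 (-0.42 and 0.05), and at 3 h for SLC25A20 (-0.14 and 0.21). At 1.5 h they were shared for ACAD11 (-0.03 and -0.07), SLC25A20 (0.09 and 0.22), SLC22A5 (0.38 and 0.38) and ACAA2 (0.27 and 0.03). At 3 h they were shared for SLC22A5 (0.40 and 0.18) and ACSL1 (0.26 and 0.08).

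Upstream sequence was searched for the motif that PPAR and RXR are known to share. The RefSeq promoter table (GRCh38.p14) held 48 windows for 35 of the 42 genes, each from 250 bases before to 50 after a start, among 35116 windows. ACAD11 was not in the table, so 4 of the 5 called members could be searched. The single motif AGGTCA, on either strand, was in 13.8% of all windows and in those of ACAD10 and ACSL5 among the members. A pair of AGGTCA spaced by 1 base was in 8 windows of all and in 0 of the members. The element TCAAGGTCA of oestrogen-related receptors was in 0.353% of all windows and in 0 of the members. When up to 2 mismatches in the spaced pair were allowed, a search added after the values were seen, 2.97% of all windows matched and 2 member windows did. These 2 of the 48 member windows (4.17%) belong to ACAA2 and to 1 of 5 windows of ACSL1, which are both called members. Both are shown because no other member window matched. With 3 mismatches 20.9% of all windows matched and 13 of the 48 member windows (27.1%), of 12 genes. A match is a description of letters, not a binding site. The 250 bases before each start follow, read along the gene, with the match in capitals: for ACAA2 at chr18:49813534-49813783 (minus strand) from position -76 to -64 of the start, and for ACSL1 at chr4:184805554-184805803 (minus strand) from position -114 to -102, where the pair lies on the opposite strand.
ACAA2: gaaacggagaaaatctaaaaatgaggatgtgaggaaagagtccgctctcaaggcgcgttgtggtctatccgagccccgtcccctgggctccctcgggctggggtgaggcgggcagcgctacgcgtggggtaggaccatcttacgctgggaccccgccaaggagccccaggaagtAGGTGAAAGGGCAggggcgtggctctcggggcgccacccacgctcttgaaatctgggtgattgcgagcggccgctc
ACSL1: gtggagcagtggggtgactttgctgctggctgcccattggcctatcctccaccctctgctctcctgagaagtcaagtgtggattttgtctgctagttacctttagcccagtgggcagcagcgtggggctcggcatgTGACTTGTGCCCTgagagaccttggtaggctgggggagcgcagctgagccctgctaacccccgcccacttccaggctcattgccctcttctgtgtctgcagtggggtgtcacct

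The same genes were followed over time in the vehicle arrays. From 0.5 to 12 h in DMSO, 21 of the 51 member probes were called with 54 arrays, 13 upward and 8 downward, where 36.4% of all probes were called. With 59 arrays 9 members were called, 3 upward and 6 downward, against 31% of all probes. Over the 5 times (limma moderated F) 36 members and 57.9% of all probes were called with 54 arrays, and 24 members and 47.2% of all probes with 59. The members' shares were 41.2% and 70.6% with 54 arrays, above those of all probes. With 59 arrays they were 17.6% and 47.1%, not above those of all probes. No untreated cells are among the arrays, so time after removal of PMA and time in DMSO cannot be told apart.

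The rises of smallest adjusted p were those of PECR, HADH, ECI1 and SLC22A5. PECR held 6.88 to 7.25 (on 6 arrays) at 0.5 h and 8.17, 7.99, 7.97 and 7.61 at 12 h, a rise of 0.90 (SE 0.11, adjusted p = 9.49e-10). Its mean was 7.20 at 3 h and 7.87 at 8 h, so that most of the rise fell between these times. HADH went from 11.02 to 11.43 (median 11.22) to 12.25, 11.92, 12.05 and 12.04, a rise of 0.84 (SE 0.11, adjusted p = 6.41e-09). ECI1 rose by 1.05 (SE 0.14, adjusted p = 1.77e-08), from 6.97 to 7.54 at 0.5 h to 8.61, 8.00, 8.65 and 8.44, and its mean had already reached 8.23 at 3 h. SLC22A5 rose 2.51-fold, by 1.33 (SE 0.18, adjusted p = 2.65e-08), from 5.60 to 5.95 (median 5.72) to 7.28, 6.89, 7.04 and 7.05. In each of these the 12 h arrays lay above all 0.5 h arrays. CROT (1.14), EHHADH (0.82) and CPT1A probe 1 (0.70) also rose, and CROT was detected on 3 of 6 arrays at 0.5 h and on 4 of 4 at 12 h. With 59 arrays, which add DMSO 12 h replicates 4 and 6, the rises were 0.09 (adjusted p = 0.895) for PECR, 0.33 (adjusted p = 0.349) for HADH and 0.68 (adjusted p = 0.109) for SLC22A5, and ECI1 was still called (0.74, adjusted p = 0.00992). Smaller rises were called with 54 arrays in ETFB (both probes), ETFDH, ACAT1, HSD17B4 and PHYH probe 1, from 0.35 to 0.50.

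The 8 falls included those of DECR1, both brighter ACSL5 probes and HADHA. DECR1 fell by 0.80 (SE 0.11, adjusted p = 2.17e-08), from 11.94 to 12.19 (median 12.09) at 0.5 h to 11.27, 11.45, 11.28 and 11.09 at 12 h. ACSL5 fell by 0.51 on probe 1 (SE 0.09, adjusted p = 3.08e-06) and by 0.54 on probe 2 (SE 0.14, adjusted p = 0.00138). Probe 1 went from 8.61 to 9.05 to between 8.10 and 8.55, and probe 2 from 6.27 to 6.67 to between 5.74 and 6.14. Its probe 3 was detected on 3 of 6 arrays at 0.5 h and on none of the 4 at 12 h. HADHA fell by 0.41 (SE 0.12, adjusted p = 0.00386), from 9.18 to 9.63 to between 8.82 and 9.08. ACSL1 (-0.59), CPT2 (-0.49), ACAD11 (-0.48) and ACADVL probe 3 (-0.65) fell as well. With 59 arrays DECR1 (-0.69), ACSL5 probe 1 (-0.39), HADHA (-0.32), CPT2 (-0.45) and ACAD11 (-1.28) were called downward, ACOT2 (-0.67) in addition, and ACSL1 stood at 0.08. By role with 54 arrays, 3 of 8 activation probes fell and none rose. Of 8 peroxisomal probes 3 rose and none fell, and of 4 electron transfer probes 3 rose and none fell. Of 8 carnitine shuttle probes 3 rose and 1 fell, and of 9 dehydrogenase probes 0 rose and 2 fell. Of 8 probes of hydration, second oxidation and thiolysis 2 rose and 1 fell, as did those of 6 probes for unsaturated fatty acids. Of all 15336 probes 36.4% were called, 2997 upward and 2590 downward. Both brighter ACSL5 probes were among the activation falls, and both ETFB probes among the electron transfer rises. No role was tested. With 59 arrays 2 of 8 activation probes fell, and 0 of 8 peroxisomal and 1 of 4 electron transfer probes rose. Then 1 carnitine shuttle probe rose and 1 fell, as for unsaturated fatty acids, and 1 fell and 0 rose in each of the remaining 2 roles. Of all probes 31% were called with 59 arrays, 2448 upward and 2307 downward.

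The called members can be set beside the vehicle course. Under RSG the mean of ACAD11 went from 9.77 at 0.5 h to 8.54 at 12 h, and in DMSO from 9.85 to 9.37, both downward. That of ACSL1 in DMSO fell from 9.07 to 8.48, and at 12 h under RSG stood at 9.03. SLC22A5 rose in DMSO and was higher again under RSG. These comparisons share the DMSO arrays of 12 h.

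**Figure D3:**
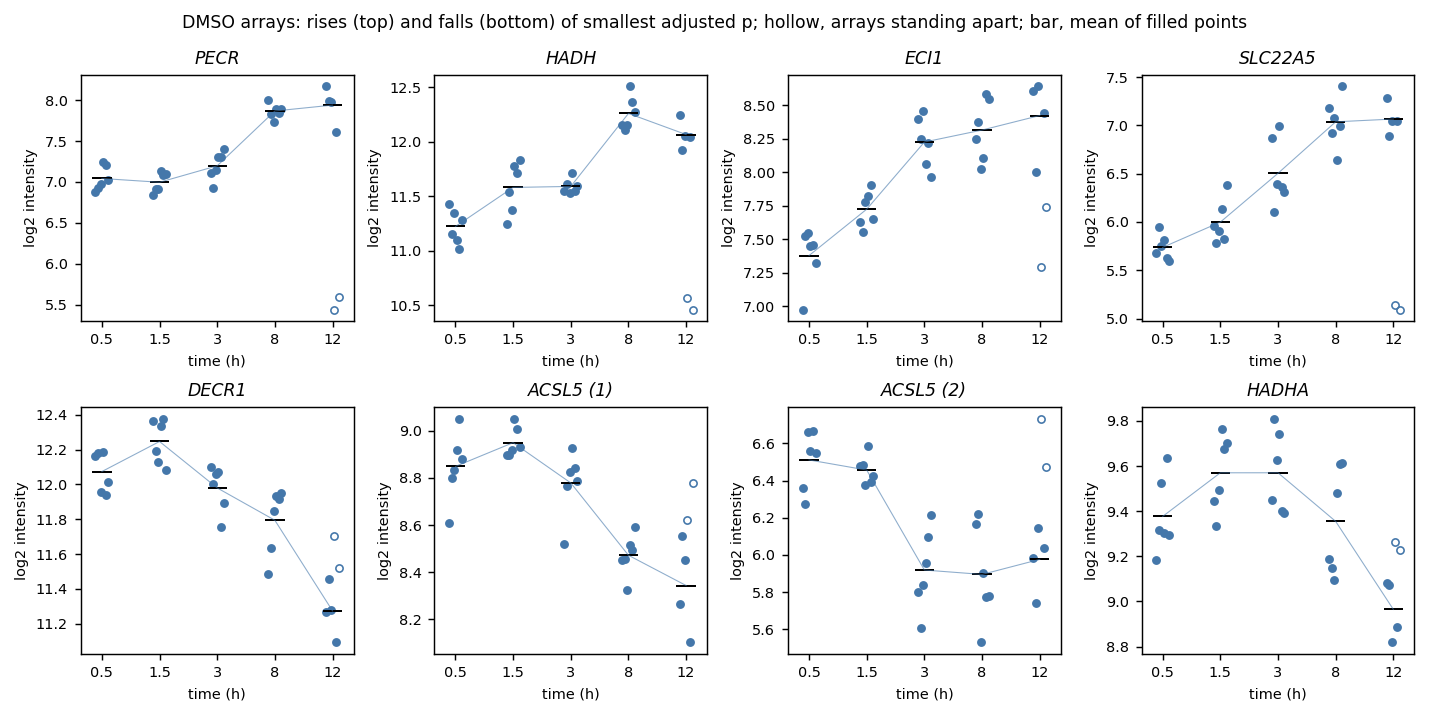
Log2 intensity (vertical axis) of the 8 member probes with the smallest adjusted p among rises and falls from 0.5 to 12 h in DMSO, by time in hours (horizontal axis). Points are arrays, hollow for DMSO 12 h replicates 4 and 6, and bars are means of the filled points; PECR and HADH step up between 3 and 8 h, and DECR1 falls to between 11.09 and 11.45.

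The 5 arrays standing apart were far from the other 19 arrays of 8 and 12 h in many members. They were chosen for their whole profile, members included, so the following is a description without a test. All 5 lay below the lowest of the 19 in 16 of the 51 probes, or 31.4%, against 13.4% of all kept probes. They lay above the highest in 2, or 3.92%, against 9.96% of all. The median difference was -0.37 over the members and 0.00 over all probes. PECR stood at 4.75 to 6.39 against 7.61 to 8.56, ACADM at 9.88 to 10.59 against 11.89 to 12.50, ACAD11 at 6.89 to 7.69 against 8.35 to 9.99, and HADH at 10.37 to 11.29 against 11.92 to 12.60. Both ETFB probes, SLC25A20, SLC22A5, ACAA2, ECI1, EHHADH, CRAT, ACAT1, ACADS, ACAD8 and CPT1A probe 1 were below as well. ACSL1 stood at 10.44 to 10.58 against 8.23 to 9.54, and ACOX3 was the other probe above. HADHA, HADHB and DECR1 differed by -0.04 to 0.00 in their means. The part of the dendritic, inflammatory and macrophage marker levels given above in these values was not tested.

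**Figure D4:**
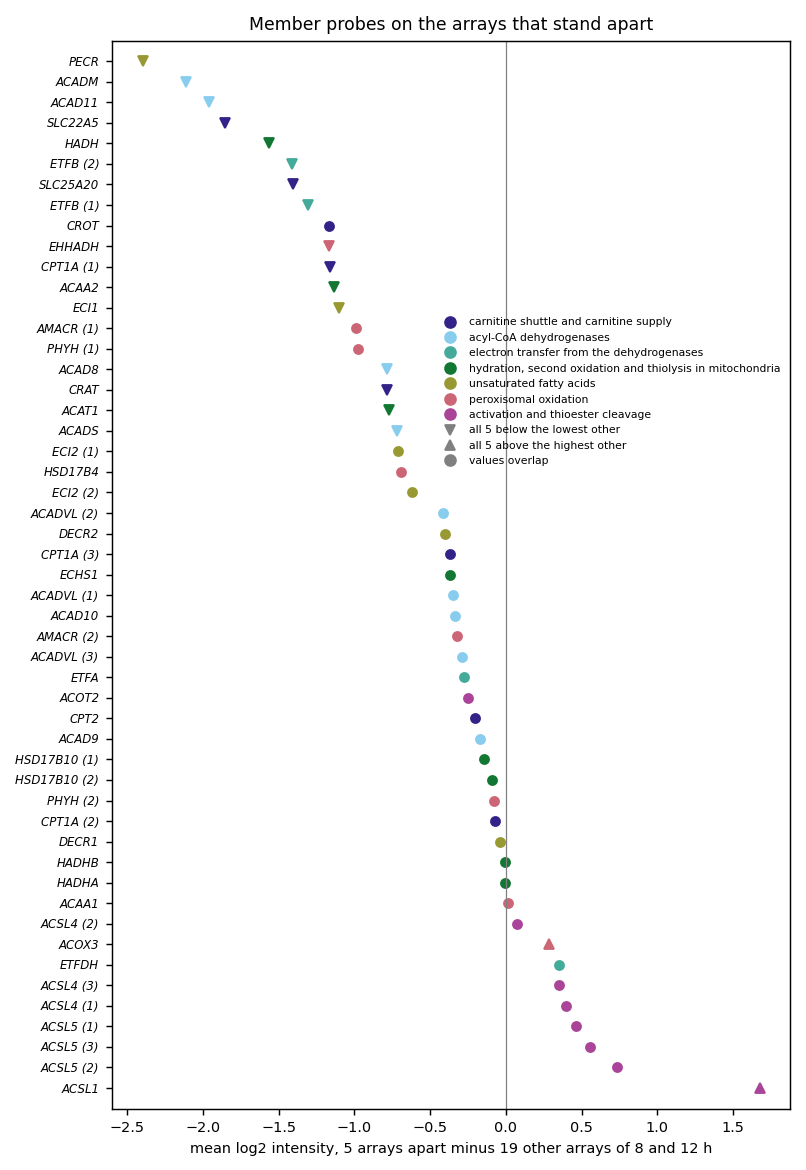
Mean log2 intensity on the 5 arrays standing apart minus that on the 19 other arrays of 8 and 12 h (horizontal axis), for each of the 51 member probes (vertical axis, coloured by role). Triangles mark the 16 probes with all 5 arrays below and the 2 with all 5 above the others; PECR lies at the low end and ACSL1 at the high end.

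Related genes outside the list were also compared between RSG and DMSO. With 54 arrays 0.893% of all kept probes were called at 8 h and 1.53% at 12 h. Of 36 further genes of oxidation, activation and peroxisome assembly, 24 were kept on 27 probes. At 8 h with 54 arrays only ACOX2, a peroxisomal oxidase for branched chains, was called among them (0.56, SE 0.15, adjusted p = 0.0452), and 0 at 12 h. Of 31 regulators, 25 were kept on 31 probes, and PDK4 alone was called, with 3.42 (SE 0.44) at 8 h and 3.53 (SE 0.52) at 12 h. Of 20 genes of ketone bodies and branched-chain acids, 17 were kept on 18 probes and 0 were called at either time. The medians at 12 h were 0.01, -0.07 and -0.07. With 59 arrays 0 probes of these lists were called at 8 or 12 h, where 0.0782% and 0.0196% of all probes were. At 12 h 0, 2 and 0 of their probes had an unadjusted p under 0.05, against 2.63% of all probes. ANGPTL4, a known RSG target that inhibits lipoprotein lipase, differed by 1.68 (SE 0.47, adjusted p = 0.0516) at 12 h on its responsive probe and by 0.15 on the other. From 0.5 to 12 h in DMSO, 6 of the 27 oxidation probes rose and 8 fell, 9 of the 31 regulator probes rose and 3 fell, and 6 of the 18 probes of the last list rose and 1 fell, where 36.4% of all probes were called. With 59 arrays, where 31% were, 4 and 7, 5 and 3, and 6 and 2 probes rose and fell. ACOT7, a thioesterase of long acyl-CoA, rose by 1.55 and 1.49 on its probes, and ACACB, which makes the malonyl-CoA that restrains CPT1, by 1.91. HACL1, an enzyme of peroxisomal alpha-oxidation, fell by 0.77, and PPARG itself by 0.50 and 0.53 on its probes. With 59 arrays each of these was called too, ACOT7 with 1.12 and 1.26, ACACB with 1.11 (adjusted p = 0.0427), HACL1 with -0.82 and PPARG with -1.35 and -1.29.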

How the data were processed

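Total RNA of 59 samples was measured on Illumina bead arrays. The deposited signal table holds the authors' raw bead intensity per probe with a detection p-value for each array, and a second deposited table holds intensity after the authors' average normalization in BeadStudio. Against the raw signals its values fit a background subtracted and a scale set for each array, on a linear scale. Probe names came from the platform annotation (21834 with 1 symbol, 0 with several, 2692 with none). No column was left without a sample (0).

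With neqc of limma 3.58.1 in R 4.3.3, raw signals were corrected for background through the detection p-values, given an offset of 16, quantile-normalized and log2-transformed. A probe stayed (15336 did) when 5 or more arrays detected it at p under 0.01. A linear model of the 10 groups was fitted over all of them with lmFit and eBayes and adjusted by Benjamini-Hochberg over all kept probes, on 59 arrays and on the 54 with a median correlation of 0.95 or more. The number of arrays limits the precision. The scripts were tested on simulated data. The members and lists were chosen with earlier results of these data known. Values by array were given for members called between RSG and DMSO, for the 4 rises and 4 falls of smallest adjusted p in DMSO, for the 3 largest differences at 12 h among members called in no RSG comparison, and for further probes of these genes. The others were given by their differences. Alternatives covered the authors' table, background, scaling, filters, probe summaries, blocks, array weights, priors and leaving out arrays. Probes without a name stayed in the fits.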

Additional observations from a re-analysis of the deposited data

Results flagged for a closer look

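Among the 160 groups of 5 or 6 arrays examined for the named member probes, 13 held a highest or lowest array whose gap to its nearest neighbour exceeded Dixon's 95% limit for the group's range, or 8.12%. Chance flags about 1 in 20 independent groups, and these share arrays, so that 11 of the 13 came from 2 arrays. Of the 13, 7 came from RSG 8 h replicate 1, which is among the 5 arrays standing apart. On it ACAD11 was at 7.69 (others 8.86 to 9.23), SLC25A20 at 6.10 (8.49 to 9.09), SLC22A5 at 5.47 (7.39 to 7.57), ACAA2 at 7.12 (8.64 to 8.89), PECR at 4.75 (7.84 to 8.07) and HADH at 10.58 (12.09 to 12.44). ACSL5 probe 1 was high there, at 9.84 (8.66 to 8.80). RSG 0.5 h replicate 6, whose PDK4 stood at 7.50 (4.56 to 5.49 on the others), gave 4 further cases, with ACAD11 at 9.11 (9.82 to 10.06), ACADVL probe 1 at 11.98 (10.99 to 11.23), ACADVL probe 3 at 5.64 (6.48 to 6.77) and ACSL5 probe 3 at 4.59 (5.21 to 5.40). ACADVL probe 2 was at 9.38 on DMSO 3 h replicate 1 (8.89 to 9.05) and at 9.50 on RSG 3 h replicate 4 (8.90 to 9.10).

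The RSG effect on ACAD11 differed between times with 54 arrays (limma moderated F, adjusted p = 0.0126), from -0.08 at 0.5 h to -0.83 at 12 h.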

How the results depend on the processing

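No log2 difference of a named member recomputed under these alternatives changed sign. Counts were compared by size only. Calls from 0.5 to 12 h in DMSO were 13 upward and 8 downward with 54 arrays, but 3 upward and 6 downward with 59. The difference of ACSL1 from 0.5 to 12 h in DMSO was not among those recomputed. It stood at -0.59 with 54 arrays and 0.08 with 59, and the members' median there at 0.09 and -0.02. With 59 arrays, array weights gave 4 called members at 8 h, 2 at 12 h, 4 over all times, 1 between times, 24 from 0.5 to 12 h in DMSO and 43 over the DMSO times. A block for the residual component within each time, chosen after seeing the data, gave 11 at 8 h, 1 between times and 21 in DMSO. Without the arrays apart the counts were 3, 3, 3, 1 and 21. With 54 arrays, the authors' table gave 1 at 8 h, array weights 6 at 8 h, 5 over all times and 2 between times, and the mean of a gene's probes 5 at 12 h and 2 between times. The residual block gave 6 at 12 h and 2 between times, and within each time 5 at 8 h, 8 at 12 h, 6 over all times and 4 between times. Without the 4 arrays doubted by PDK4 together, also chosen after seeing the data, the set of 54 gave 3 at 8 h, 4 at 12 h (ACADVL probe 3 in addition, adjusted p = 0.0479), 3 over all times and 2 between times, and that of 59 gave 0 in each. Between times, no background correction, detection on every array, 1 probe per gene and the trended prior each gave 2, and median centring 0. A 1.5-fold minimum gave 0 over all times and 10 in DMSO. Leaving out 1 array gave 1 to 3 at 8 h, 2 to 5 at 12 h (5 without DMSO replicate 3), 2 to 4 over all times, 1 to 2 between times, 20 to 23 and 33 to 38 in DMSO. With 59 arrays these were 0 for each RSG comparison, and 7 to 11 and 19 to 27 in DMSO. Except without the arrays apart, the share of all kept probes called was not counted under these alternatives, nor for the replicate block below. A higher or lower count of members there cannot be set against the whole array. The causes were not tested.

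Replicate numbers did not pair the arrays: the mean residual correlation of same-numbered arrays ran from -0.43 to -0.00. With the replicate block and 54 arrays, 3 members were called at 8 h, 2 at 12 h, 2 over all times, 1 between times, 22 from 0.5 to 12 h in DMSO and 35 over the DMSO times, and with 59 arrays 0 in each RSG comparison, 9 and 24. ACAA2 at 12 h (0.40, limma adjusted p = 0.142) and SLC25A20 over all times (0.32, adjusted p = 0.0706) were then not called.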

Other observations

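At 1.5 h, levels of members split by replicate number within both groups, given here as values without a test. ACAD11 held 9.65, 9.63 and 9.57 on DMSO replicates 1 to 3 and 10.10, 10.05 and 10.07 on replicates 4 to 6. Under RSG it held 10.08 and 10.00 on replicates 1 and 2 and 9.47, 9.65 and 9.51 on replicates 3 to 5. ACADVL probe 1 ran the other way, with 10.88, 11.11 and 11.14 against 10.30, 10.29 and 10.41 in DMSO, and 10.52 and 10.53 against 11.22, 11.25 and 11.12 under RSG. Labels name no batch for these sets.

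The GC box motif GGGCGG, on either strand, was in 34 of 48 member promoter windows, or 70.8%, and in 44.95% of all windows, a search added after seeing the data.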
